A study of Homo sapiens with 3 samples.

Results

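The NF-kB subunits and their feedback inhibitors were followed as 10 genes, the members, in THP-1 cells before and after differentiation with phorbol myristate acetate (PMA). Members were the probe sets whose platform symbol was exactly NFKB1, NFKB2, RELA, RELB, REL, NFKBIA, NFKBIB, NFKBIE, NFKBIZ or TNFAIP3. All 10 genes were found, with 22 of the 54675 probe sets of the array, among 19775 genes with a single symbol. THP-1 is a human monocytic cell line that grew from a leukemia, and PMA, an activator of protein kinase C, turns its cells into adherent macrophage-like cells. Total RNA of 3 cultures was measured on 1 oligonucleotide array each. The undifferentiated culture had no PMA. The culture labelled PMA 3 days was given 200 nM PMA for 24 h and kept for 3 further days in PMA-free medium, which makes 4 days in all. The culture labelled PMA 8 days was given 200 nM PMA for 72 h and kept for 5 further days without it. By the protocol, cells grew with 10% serum, and medium with 2% serum was put on 16 h before RNA was isolated. Both are listed for all 3 cultures, though the low-serum step is not described separately for the undifferentiated cells. Length of PMA exposure, time since its removal and time in culture thus differ together and cannot be told apart.

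NF-kB is a family of dimeric transcription factors. RELA, RELB and REL carry a transactivation domain, while NFKB1 and NFKB2 encode the precursors p105 and p100, which are processed to p50 and p52. In resting cells IkB proteins hold the dimers in the cytoplasm. The IkB kinase complex marks IkB for degradation, the freed dimers enter the nucleus, and among their target genes are those of IkB proteins and of the ubiquitin-editing enzyme A20 (TNFAIP3), which close a negative feedback loop. In macrophages the pathway is known for inflammatory gene expression, and protein kinase C is one of the routes by which it is switched on.

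Sequence around the transcript starts is shown first, because the feedback genes are known to be controlled through kappaB motifs, the sites bound by NF-kB dimers. RefSeq promoter windows (GRCh38.p14) of 300 bases, from 250 before to 50 after a transcript start, were held for 8 of the 10 members, 14 windows in all. RELB and NFKBIE had none. The kappaB motif, 10 bases long with a run of G at one end and a run of C at the other, was searched on both strands. It matched in 9 of the 14 member windows, which belonged to 7 of the 8 genes, and in 11.3% of all 35116 windows. G and C made up 51.3% to 79.0% of the member windows, and the part of base composition in these counts was not tested. Neighbouring and overlapping matches gave 12 stretches. The windows of RELA held no match. The 250 bases before the NFKBIA start (chr14:35404750-35404999, minus strand) hold 1 match, in capitals, 81 bases before the start.
NFKBIA: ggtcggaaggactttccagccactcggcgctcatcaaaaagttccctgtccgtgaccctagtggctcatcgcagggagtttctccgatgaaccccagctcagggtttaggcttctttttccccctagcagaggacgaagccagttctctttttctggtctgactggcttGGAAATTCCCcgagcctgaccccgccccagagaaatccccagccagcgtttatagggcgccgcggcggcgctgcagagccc

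The matches of other members are shown with their flanks, again with the motif in capitals and in the direction of the gene. All lie on the plus strand. The distance from each first matched base to the start was 67 bases in TNFAIP3 (chr6:137867188-137867217), which had a pair of matches, 49 in NFKB1 (chr4:102501300-102501329), 47 in REL (chr2:60881518-60881547), 107 in the NFKB2 stretch shown (chr10:102394462-102394491), 28 in the NFKBIB stretch shown (chr19:38899932-38899961) and 223 in the NFKBIZ stretch shown (chr3:101827757-101827786).
TNFAIP3: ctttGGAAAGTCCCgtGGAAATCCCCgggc
NFKB1: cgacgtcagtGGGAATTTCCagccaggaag
REL: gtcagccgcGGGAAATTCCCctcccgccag
NFKB2: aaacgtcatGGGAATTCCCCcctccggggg
NFKBIB: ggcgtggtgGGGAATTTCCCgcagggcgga
NFKBIZ: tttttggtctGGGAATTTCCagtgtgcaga

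The same 10 bases, GGGAATTTCC, stood in NFKB1, NFKBIB and NFKBIZ. Their reverse complement, GGAAATTCCC, stood in NFKBIA and REL, and is the same site read on the other strand. In REL, NFKB2 and NFKBIB the capitals hold 2 overlapping matches. The TPA response element, the AP-1 motif named for phorbol esters, was searched as TGACTCA on both strands. It matched in none of the 14 member windows and in 4.95% of all windows. The looser AP-1-like pattern TGANTCA, which takes in that element, matched in 1 member window, that of NFKBIB, and in 7.71% of all windows. The NFKBIB match reads TGAATCA, which is not the TPA response element, and did not overlap the kappaB matches there. A match describes the letters of a window and does not show that a factor binds.

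**Figure D1:**
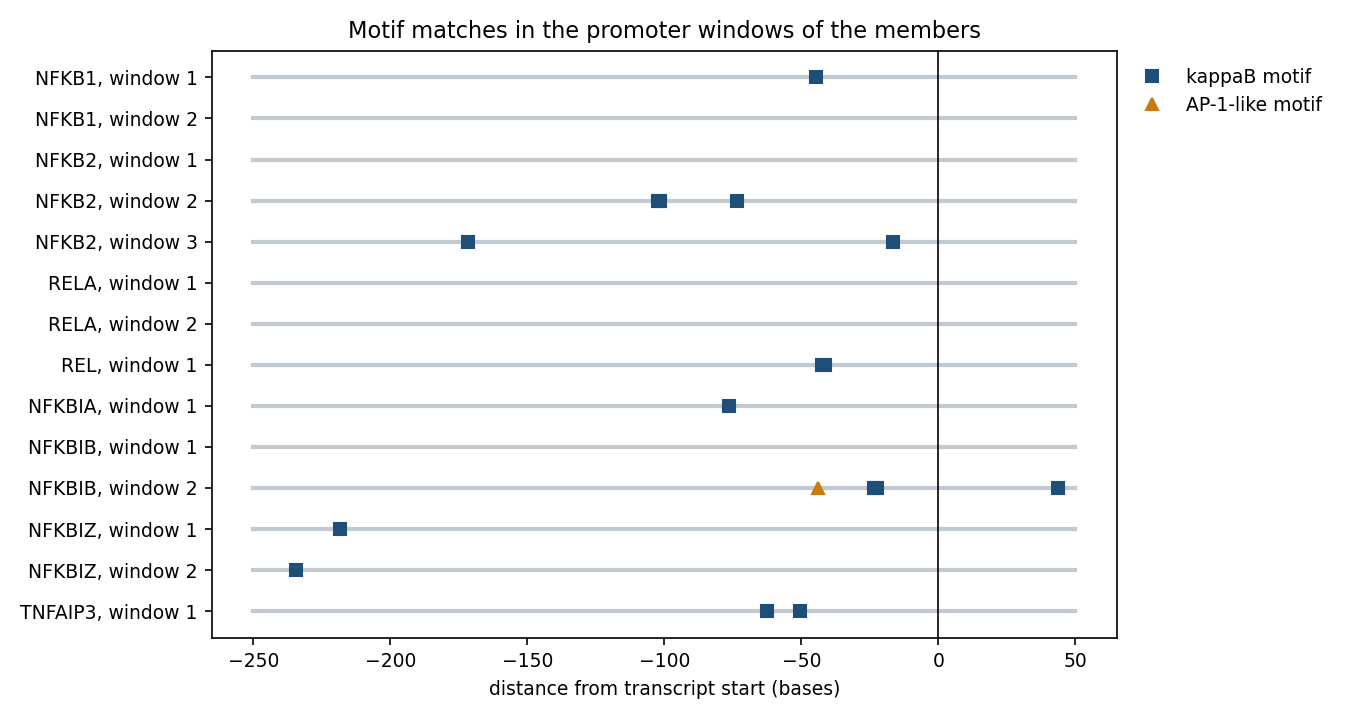
Position of kappaB (squares) and AP-1-like (triangle) matches in the 14 promoter windows of 8 members; the x axis is the distance in bases from the transcript start at 0, and grey lines are the 300-base windows. Matches lie in 9 windows, and RELA has none.

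The values are MAS5 signals, on a linear scale of arbitrary units. Each array has a trimmed mean signal of 1000.1. A floor of 150.2, the median of all signals together, marks where a signal was treated as measured, and lower signals were raised to it before a ratio was taken. Of the 22 member probe sets 16 lay above the floor on all 3 arrays and the other 6 on none. Each gene is represented by its brightest probe set, and all 10 members were above the floor on every array, so none entered a comparison through 1 condition alone. There were no replicates. Each value comes from a single array, so the conditions could not be tested against each other, and the number of arrays limits the precision. The spread that the files do hold is that of log2 ratios among the probe sets of a gene. From 5175 genes its SD was 0.43 at PMA 3 days and 0.44 at PMA 8 days, both relative to undifferentiated cells, and 0.27 between the PMA arrays. It covers neither culture nor labelling differences. Signals of different genes are not comparable as levels, so each gene is compared with itself across arrays.

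The labelled cell states were checked against marker genes. Of 7 macrophage markers with a probe set all 7 were more than 2-fold higher on both PMA arrays, and of 8 progenitor and granule markers 7 were more than 2-fold lower. Of 7 myeloid markers with a probe set 6 were above the floor on every array, TYROBP and PTPRC among them. The other, SPI1, had a signal of 25.0 in undifferentiated cells, below the floor. Past 2-fold, 2 of the 7 were higher and 1 lower at PMA 3 days, and 1 and 2 at PMA 8 days. CEBPA was 6.51-fold and 3.62-fold lower, and LYZ was 2.69-fold lower at PMA 8 days. The T-cell markers CD3D, CD3E and CD3G and the B-cell marker MS4A1 were below the floor on every array, and at most 2 of 7 T and NK cell markers were above it on any array. CD79A, CD79B and PAX5 were above it on all 3 arrays. Summed signals of the fibroblast, epithelial and endothelial markers ranged from 1541 to 3162 and were higher on the PMA arrays, where COL1A1 made up most of the sum. The part of these markers in the results was not tested. In such bulk RNA a change in the number of cells of a kind and in the RNA per cell cannot be told apart. Ratios of 3' to 5' signal of actin ranged from 1.36 to 1.49 and those of GAPDH from 1.10 to 1.16. The poly-A control transcripts, added at labelling, had a mean log2 ratio of 0.22 at PMA 3 days relative to undifferentiated cells and of -0.30 at PMA 8 days relative to PMA 3 days. Scaling to them moved the median of all genes from -0.12 to -0.32 and from 0.04 to 0.32 in these comparisons. It also moved the share of higher genes among all 2-fold calls from 49.2% to 33.7% and from 58.9% to 92.6%, and centring on the median moved the first to 59.3%.

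The first comparison asked how the members differed between PMA 3 days and undifferentiated cells. The 5 genes grouped as inhibitors, NFKBIZ among them, were all higher after PMA, at 1.60-fold to 1.96-fold, with a median log2 ratio of 0.77. The group name is a label, as the product of NFKBIZ also takes part in turning genes on. The subunits were near their starting levels apart from RELB, at 0.96-fold to 1.73-fold, with a median log2 ratio of 0.10. All genes tested had a median of -0.12. No member passed 2-fold in either direction, where 10.4% of the 13292 genes tested were higher and 10.7% lower. At 1.5-fold 6 of 10 members were higher, against 17.9% of all genes, and none was lower, against 23.9%. The 6 were RELB and all 5 inhibitors. Under poly-A control scaling 2 remained, NFKBIB and TNFAIP3, where 13.5% of all genes were higher and 34.1% lower, and RELB, NFKBIA, NFKBIE and NFKBIZ were at 1.37-fold to 1.48-fold. The 5 inhibitors stayed above undifferentiated cells under quantile normalization, poly-A control scaling and median centring, while the median of the subunits went to -0.13 under poly-A control scaling. Poly-A control scaling and median centring shift all members alike. The controls' log2 ratio of 0.22 and the all-gene median of -0.12 are smaller in size than the lowest inhibitor log2 ratio, 0.68. Neither setting could therefore turn the sign of an inhibitor. At PMA 8 days the inhibitors were at 1.23-fold to 2.34-fold and the subunits at 0.78-fold to 1.30-fold.

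**Figure D2:**
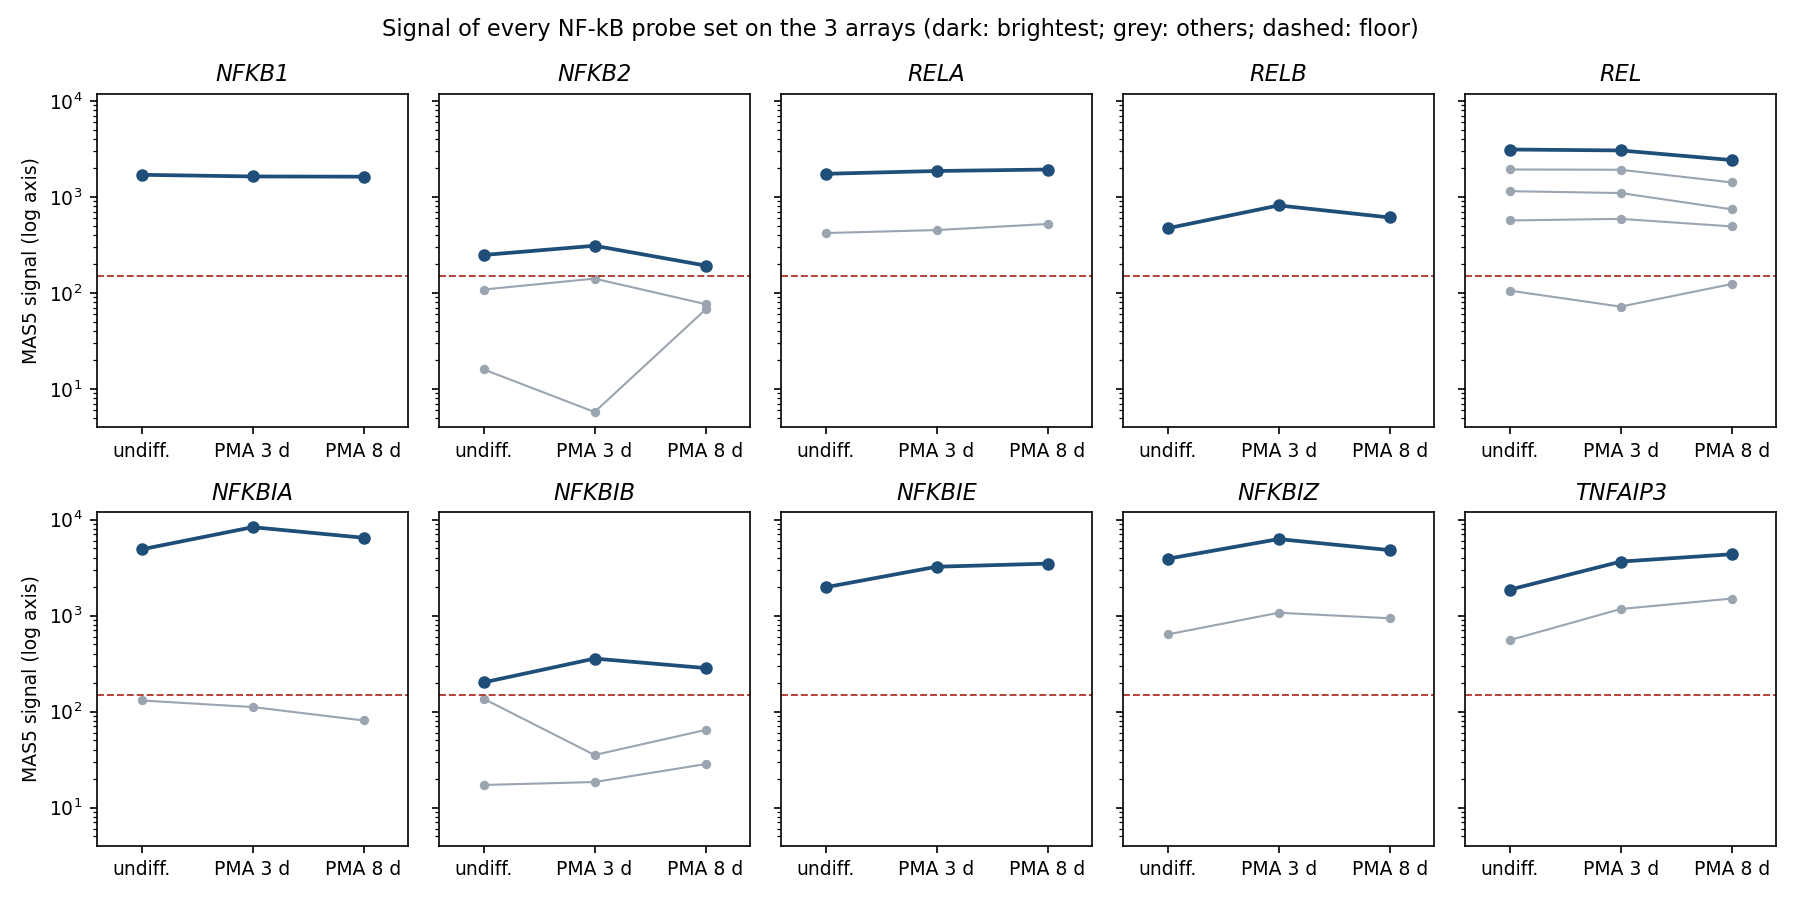
MAS5 signal (log axis) of all 22 member probe sets on the 3 arrays, 1 point an array, with the brightest probe set of each gene dark, other probe sets grey and the floor of 150.2 dashed. The dark lines of all 5 inhibitors lie higher on both PMA arrays than in undifferentiated cells, and those of NFKB1 and RELA are nearly level.

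TNFAIP3 encodes A20, which edits ubiquitin chains on signalling proteins and so damps activation of the IkB kinase. Its signal was 1860 in undifferentiated cells, 3650 at PMA 3 days and 4354 at PMA 8 days. It was thus lowest in undifferentiated cells and highest at PMA 8 days. The ratio to undifferentiated cells was 1.96-fold at PMA 3 days (log2 ratio 0.97) and 2.34-fold at PMA 8 days (1.23), which is 2.26 and 2.76 times the SD between probe sets. The PMA arrays differed by 1.19-fold, within 1 SD. Of all genes tested 10.7% had a larger log2 ratio at PMA 3 days and 7.21% at PMA 8 days. The dimmer probe set read 554, 1171 and 1504 in the same order of arrays. It gave 2.11-fold and 2.71-fold, so the 2 probe sets had the same order of arrays, and by the dimmer one A20 was past 2-fold at both times.

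NFKBIA encodes IkB-alpha, the classical inhibitor that is degraded on stimulation and made again by NF-kB itself. Its signal was 4895 in undifferentiated cells, 8335 at PMA 3 days and 6467 at PMA 8 days. The order differed from that of TNFAIP3, with PMA 3 days highest. NFKBIA was 1.70-fold higher at PMA 3 days and 1.32-fold at PMA 8 days. The log2 ratio of 0.40 at PMA 8 days lay within 1 SD of the spread between probe sets, and that of -0.37 for PMA 8 days over PMA 3 days was 1.38 times that SD in size. A second probe set was below the floor on all 3 arrays, with signals from 80.8 to 130.5, and gave no ratio.

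NFKBIE encodes IkB-epsilon, a further inhibitor degraded on stimulation. Its only probe set read 1973 in undifferentiated cells, 3228 at PMA 3 days and 3477 at PMA 8 days. Both PMA arrays were above the undifferentiated one, at 1.64-fold and 1.76-fold, and they differed from each other by 1.08-fold, within 1 SD. NFKBIE and TNFAIP3 were not lower at PMA 8 days than at PMA 3 days, and the other 3 inhibitors were.

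NFKBIZ encodes IkB-zeta, an atypical nuclear IkB that binds p50 and takes part in turning on secondary response genes. Its signal was 3907 in undifferentiated cells, 6262 at PMA 3 days and 4808 at PMA 8 days. PMA 3 days was highest, at 1.60-fold, and PMA 8 days was 1.23-fold above undifferentiated cells, within 1 SD. The other probe set read 636, 1070 and 938, with the same order of arrays and folds of 1.68 and 1.47.

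NFKBIB encodes IkB-beta, an inhibitor related to IkB-alpha. Its brightest probe set was near the floor, at 201 in undifferentiated cells, 357 at PMA 3 days and 284 at PMA 8 days. These gave 1.77-fold and 1.41-fold. The probe set has the suffix of the array design that marks probes which can bind other transcripts, and 2 further probe sets were below the floor on all arrays, with signals from 17.2 to 136.0. With the floor at the 60th percentile of all values, 262.2, the log2 ratio at PMA 3 days was 0.44 in place of 0.82, and that at PMA 8 days 0.12 in place of 0.50.

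**Figure D3:**
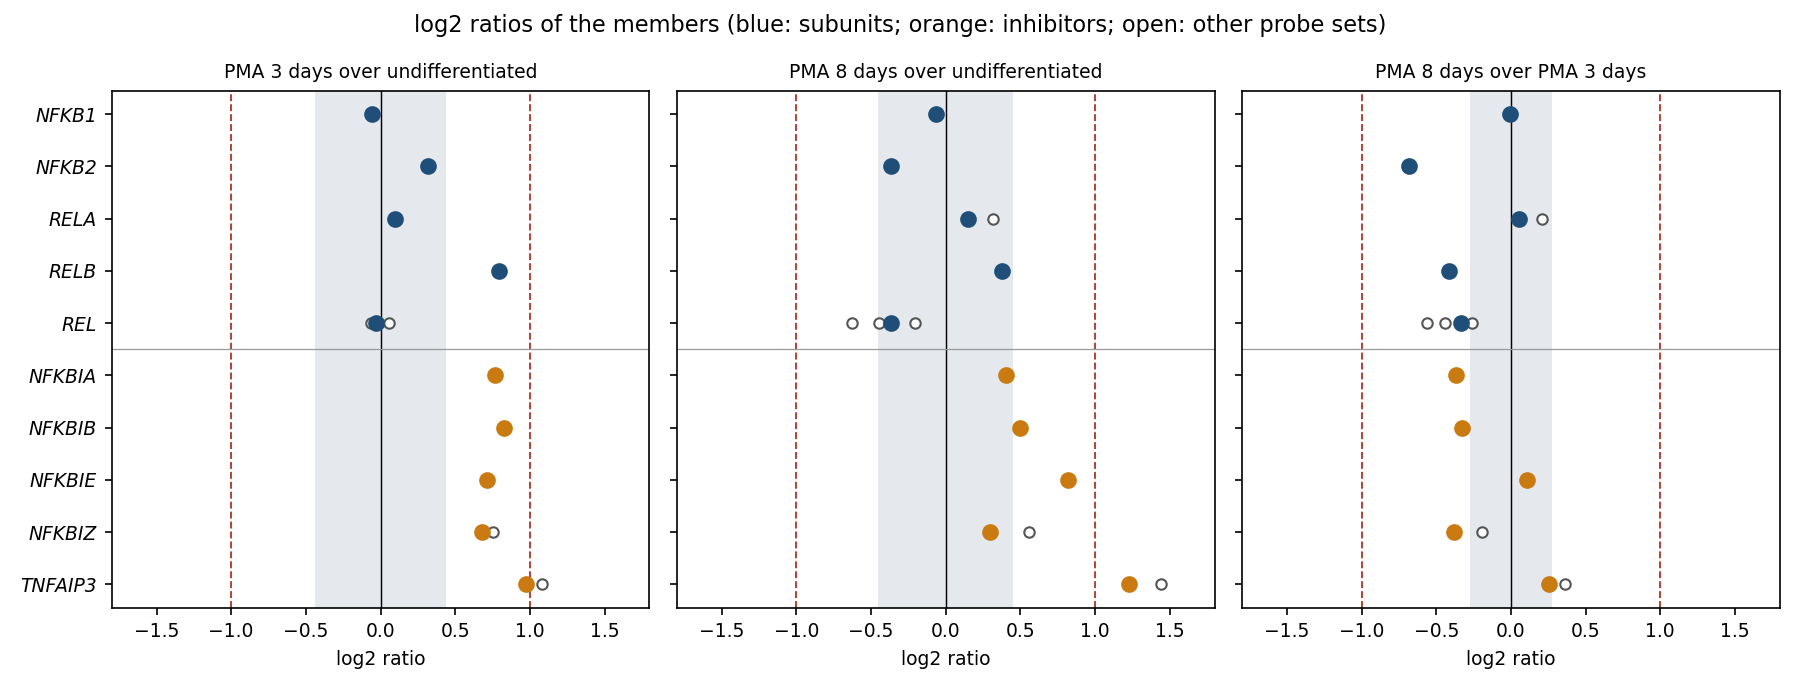
log2 ratios (x axis) of the 10 members in the 3 comparisons, with subunits blue, inhibitors orange and other probe sets above the floor open. The grey band is 1 SD among probe sets of a gene and dashed lines mark 2-fold; at PMA 3 days over undifferentiated all 5 inhibitors and RELB lie right of the band.

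Of the subunits, RELB, the partner of p52 in the non-canonical pathway, had the largest ratio at PMA 3 days. Its only probe set read 473 in undifferentiated cells, 818 at PMA 3 days and 613 at PMA 8 days. RELB was 1.73-fold higher at PMA 3 days and 1.30-fold at PMA 8 days, the latter within 1 SD. Its order of arrays was that of NFKBIA, NFKBIB and NFKBIZ.

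NFKB2 encodes p100, which is both the precursor of p52 and an IkB-like inhibitor of RELB. Its brightest probe set was near the floor, at 249 in undifferentiated cells, 311 at PMA 3 days and 193 at PMA 8 days. It was highest at PMA 3 days and lowest at PMA 8 days. PMA 8 days was 1.61-fold lower than PMA 3 days, a log2 ratio of -0.69, which is 2.59 times the SD between probe sets in size. Of all genes tested 3.12% had a smaller log2 ratio in that comparison. The value depended on the floor, and with the floor at 262.2 the log2 ratio was -0.25. Another 2 probe sets were below the floor on every array.

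REL encodes c-Rel, a subunit found mainly in blood cells. Its brightest probe set read 3129 in undifferentiated cells, 3061 at PMA 3 days and 2429 at PMA 8 days. The first pair of arrays was nearly level, at a log2 ratio of -0.03, and PMA 8 days was lowest, 1.29-fold below undifferentiated cells, within 1 SD. All 4 probe sets above the floor had their lowest signal at PMA 8 days, with log2 ratios to undifferentiated cells from -0.63 to -0.21. The largest of these was that of a dimmer set, at 1152, 1102 and 746. Between the PMA arrays their log2 ratios were -0.33, -0.44, -0.56 and -0.26, and all but the last exceeded 1 SD in size. These probe sets were read on the same arrays, so a change of scaling moves them together. Under poly-A control scaling the brightest gave -0.03.

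RELA encodes p65, the main transactivating subunit of the canonical pathway. Its signal was 1747 in undifferentiated cells, 1869 at PMA 3 days and 1937 at PMA 8 days. The arrays differed by at most 1.11-fold, and the second probe set, at 422, 453 and 525, by at most 1.24-fold. NFKB1, which encodes p105 and p50, had 1 probe set, at 1706, 1640 and 1631. These differed by at most 1.05-fold, and all log2 ratios of NFKB1 and RELA lay within 1 SD. Their signs rested on the scaling: at PMA 3 days the log2 ratio of RELA, 0.10, was -0.13 under poly-A control scaling, and that of NFKB1, -0.06, was 0.06 under median centring.

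At PMA 8 days over undifferentiated cells 1 of the 10 members was more than 2-fold higher, TNFAIP3, against 9.84% of the 13545 genes tested. None was more than 2-fold lower, against 8.50%. At 1.5-fold 2 members were higher, TNFAIP3 and NFKBIE, against 17.6% of all genes, and none was lower, against 20.1%. The shares of members that were higher are near those of all genes. The median log2 ratio was 0.50 for the inhibitors and -0.06 for the subunits, beside -0.07 for all genes. The signal was above undifferentiated cells for all 5 inhibitors and for RELA and RELB, and below for NFKB1, NFKB2 and REL. Of these signs that of NFKB1 turned under poly-A control scaling and median centring.

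In the comparison of PMA 8 days with PMA 3 days no member passed 2-fold, where 1.37% of the 13044 genes tested were higher and 0.958% lower. At 1.5-fold 1 member was lower, NFKB2, against 4.74% of all genes, and none was higher, against 7.18%. Under poly-A control scaling none was lower at 1.5-fold, where 1.61% of all genes were, and NFKB2 was also within 1.5-fold with the floor at the 60th percentile and with an offset of 50 in place of the floor. Of the 10 log2 ratios 7 were below 0, with a median of -0.33 both for the subunits and for the inhibitors, beside 0.04 for all genes. RELA, NFKBIE and TNFAIP3 were above 0. Under poly-A control scaling both medians were near 0, at -0.03 for the subunits and -0.02 for the inhibitors, while that of all genes was 0.32, and NFKB1 was above 0. The comparisons with undifferentiated cells share that array, so they are not independent of each other.

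The rest of the pathway was read from 7 lists of its other parts. They were written from general knowledge with earlier results of these data known. Higher and lower in the list counts mean past 2-fold. Each count stands beside the shares of all genes tested. These were 10.4% higher and 10.7% lower at PMA 3 days, and 9.84% and 8.50% at PMA 8 days. Under poly-A control scaling the medians of the 7 lists at PMA 3 days were lower, like that of all genes. They went below 0 for the other IkB family genes (-0.20), the adaptors (-0.04) and the receptors (-0.0042). In the list of other IkB family genes 3 were measured and none passed 2-fold at either time, with medians of 0.02 at PMA 3 days and -0.15 at PMA 8 days. NFKBID, which encodes a nuclear IkB and was chosen for its role after its values were seen, read 491, 500 and 391. The 3 genes of the IkB kinase complex, chosen for their role after their values were seen, were within 2-fold as well. CHUK (IKK-alpha) had log2 ratios of 0.57 and 0.31 at PMA 3 and 8 days, IKBKB (IKK-beta) -0.14 and -0.45, and IKBKG (NEMO) -0.13 and 0.09.

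Among 14 measured IKK and upstream kinase genes 1 was more than 2-fold higher at PMA 3 days and 2 at PMA 8 days, with none lower and medians of 0.30 and 0.24. MAP3K14 encodes NIK, the kinase that starts p100 processing in the non-canonical pathway. It read 177 in undifferentiated cells, near the floor, 611 at PMA 3 days and 701 at PMA 8 days, or 3.46-fold and 3.97-fold. IKBKE, an IKK-related kinase, read 624, 1002 and 1436 and was 2.30-fold higher at PMA 8 days, with a log2 ratio of 0.33 by its next probe set.

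Of 15 measured adaptors and ubiquitin ligases 3 were more than 2-fold higher and 1 more than 2-fold lower at PMA 3 days. At PMA 8 days 3 and 2 were past 2-fold, and the medians were 0.19 and 0.31. MYD88, the adaptor of toll-like and interleukin-1 receptors, read 4840, 10585 and 7809 and was 2.19-fold higher at PMA 3 days. TRAF5, a TNF receptor adaptor, was below the floor in undifferentiated cells and at least 3.66-fold higher at PMA 3 days. By their brightest probe sets the Pellino ligases went opposite ways. PELI1 read 813, 3086 and 2326, or 3.80-fold and 2.86-fold, but its next probe set gave log2 ratios of 0.66 and -0.34. PELI2 read 1423, 278 and 200, which is 5.13-fold and 7.13-fold lower, and its next probe set was below the floor. SHARPIN, of the linear ubiquitin ligase, was 2.19-fold lower at PMA 8 days.

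In the route from protein kinase C through CARD, BCL10 and MALT1, 8 genes were measured. Past 2-fold, 1 was higher and 2 lower at PMA 3 days, and 1 and 1 at PMA 8 days, with medians of -0.43 and -0.63. MALT1, the paracaspase that cleaves A20, read 922, 3439 and 2722 and was 3.73-fold and 2.95-fold higher, with log2 ratios of 1.84 and 1.69 by its next probe set. PRKCB read 8399, 4140 and 4490 and was 2.03-fold lower at PMA 3 days. PRKCA was 2.75-fold lower at PMA 3 days by its brightest probe set, and its next one gave a log2 ratio of 0.02. PRKCE read 488, 334 and 158 and was 3.10-fold lower at PMA 8 days, just above the floor there.

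Other brakes on the pathway had medians near those of all genes, which were -0.12 at PMA 3 days and -0.07 at PMA 8 days. Of 17 measured partners of A20 and further brakes 1 was more than 2-fold higher and 3 more than 2-fold lower at PMA 3 days. At PMA 8 days 1 and 2 were past 2-fold, and the medians were -0.12 and -0.08. CYLD, another deubiquitinase, read 1451, 3401 and 3366, or 2.34-fold and 2.32-fold higher, while its next probe set gave log2 ratios of 0.52 and 0.16. IRAK3, an inactive kinase that holds back signals from toll-like receptors, read 5265, 460 and 507. TNFAIP8L2, a negative regulator of immune cell activation, read 7085, 3478 and 3382 and was 2.04-fold and 2.09-fold lower. PPP1R13L, which encodes a RELA-binding inhibitor, read 371, 171 and 201 and was 2.16-fold lower at PMA 3 days.

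Of 17 measured receptors upstream 6 were more than 2-fold higher and 3 more than 2-fold lower at PMA 3 days. At PMA 8 days 5 and 1 were past 2-fold, and the medians were 0.22 and 0.32. TLR8, a sensor of single-stranded RNA, read 822, 6670 and 2750, or 8.12-fold higher at PMA 3 days. TNFRSF12A, a receptor of the non-canonical pathway, was below the floor in undifferentiated cells and at least 4.75-fold and 10.5-fold higher. IL1R1, the interleukin-1 receptor, read 296, 1040 and 1435, whereas IL1RAP, its accessory chain, read 1915, 278 and 225. Both genes had a next probe set below the floor.

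The list of genes known as NF-kB targets had a median of 1.16 at PMA 3 days and 1.20 at PMA 8 days. Of its 38 measured genes 20 were more than 2-fold higher and 2 more than 2-fold lower at PMA 3 days. At PMA 8 days 21 and 1 were past 2-fold. MMP9, the gelatinase, read 1765, 66826 and 72969. PLAU, the urokinase, read 2020, 28169 and 28418, or 13.9-fold and 14.1-fold higher. TNFAIP6, which encodes a hyaluronan-binding protein, was below the floor in undifferentiated cells and at least 20.6-fold and 11.1-fold higher. BCL2A1, a survival gene, was at least 23.5-fold higher at PMA 8 days. Between the PMA arrays 2 of the 38 were more than 2-fold higher and 3 more than 2-fold lower at PMA 8 days. The shares of all genes were 1.37% and 0.958%. The chemokines CXCL2, at 271, 3105 and 1122, and CXCL10, at 208, 3398 and 1234, were 2.77-fold and 2.75-fold lower. The next CXCL2 probe set gave a log2 ratio of -0.39. F3, tissue factor, at 1993, 765 and 1758, and CCL2, at 257, 84.1 and 329, were 2.30-fold and at least 2.19-fold higher. By probe sets without a suffix mark, which covered 27 of the targets, their median at PMA 3 days was 0.71. Many of these genes answer to other factors as well, so the list does not isolate NF-kB.

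**Figure D4:**
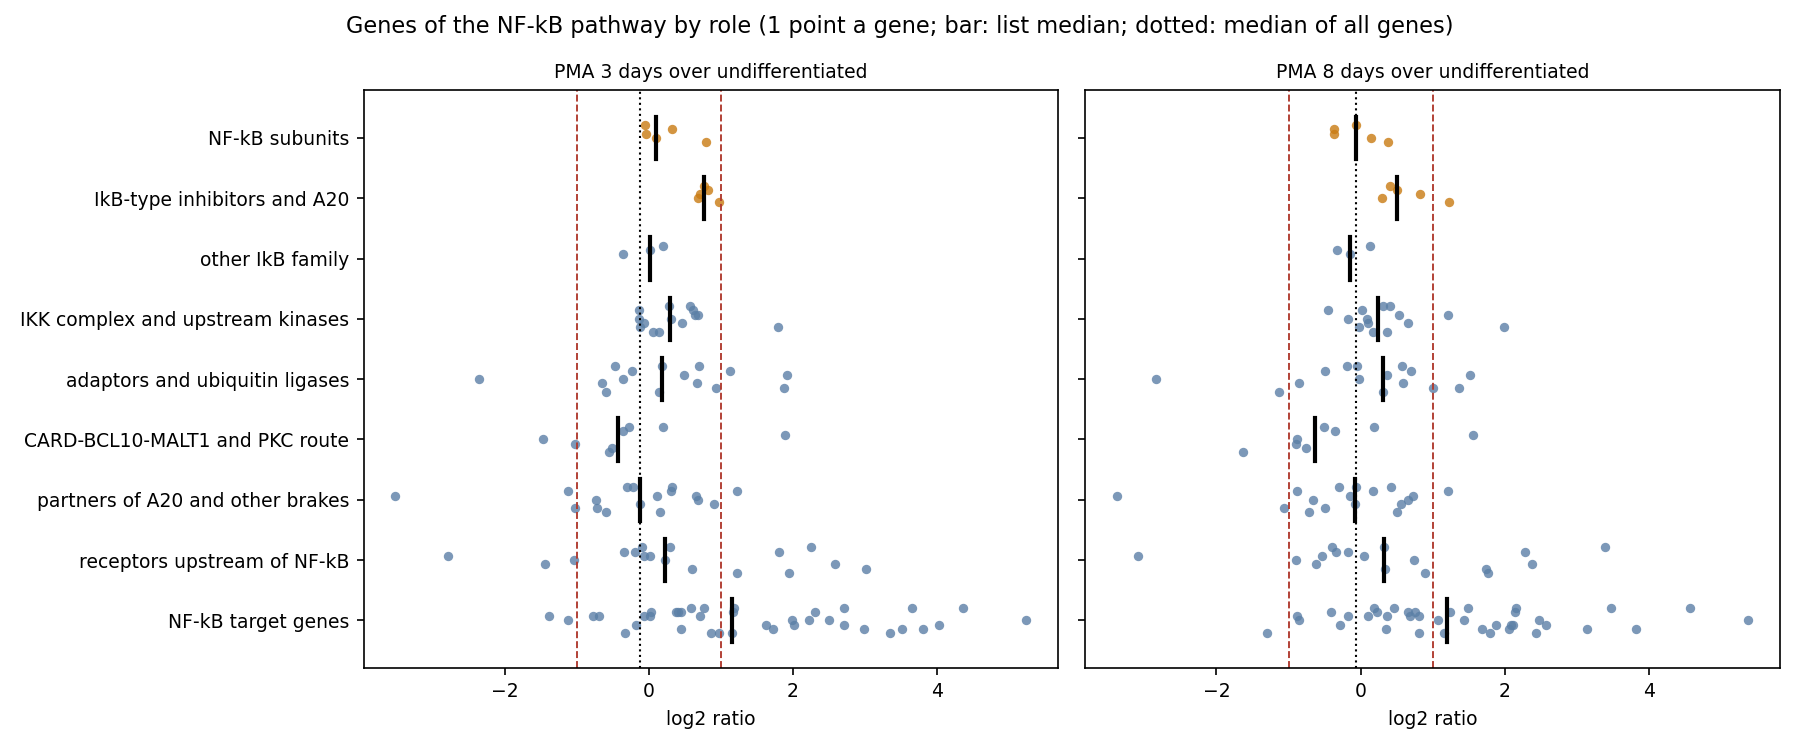
log2 ratios (x axis) of measured pathway genes by role at PMA 3 and 8 days over undifferentiated, 1 point a gene, with the 2 member lists orange, list medians as bars, the median of all genes dotted and 2-fold dashed. The 5 inhibitors form a narrow group at PMA 3 days with a median of 0.77, and the target list spreads farthest, with a median of 1.16.

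Only TNFAIP3 passed 2-fold, and the pathway genes nearest to it were found by the distance between pairs of log2 ratios over undifferentiated cells, at PMA 3 and 8 days, among 112 genes. CD44, the hyaluronan receptor, was nearest, at a distance of 0.07 (1.96-fold and 2.23-fold). CFLAR, an inhibitor of caspase-8, followed at 0.20 (2.25-fold and 2.35-fold) and RNF31, the catalytic chain of the linear ubiquitin ligase, at 0.22 (1.91-fold and 2.01-fold). The probe sets of CFLAR and RNF31 have the suffix that marks probes which can bind other transcripts. RNF31 read 182 in undifferentiated cells, near the floor. With 3 arrays such likeness is loose, since 162 of all 13743 genes above the floor lay as near as the third.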

How the data were processed

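RNA from 1 culture per condition was measured on 3 arrays of 1 colour. The intensity values as deposited were made by the authors with MAS5, per the submitters' processing notes. For MAS5 the version and settings are not given in the sources used here. By the labels' protocols each array took 200 ng of RNA. Probe sets with a single symbol in the platform table were used (41091 of 54675), 1801 with several and 11721 with none were not named, and 62 controls were set aside. The symbols of all 22 member probe sets matched RefSeq by Entrez ID.

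The floor, brightest probe set and 2-fold threshold are as stated above, with 1.5-fold as a further threshold. With 1 array a condition no p-value was computed. The members and lists were chosen with earlier results of these data known. Genes named outside the members are up to 4 per list and comparison with the largest ratio past 2-fold, and the 3 nearest to a member past 2-fold. NFKBID, CHUK, IKBKB and IKBKG fall outside this rule and were chosen for their role after their values were seen. Alternatives covered probe set, floor, scaling, filter and threshold. The steps were tested on simulated data. Computation was in Python 3.11.15 with pandas 2.3.3 and numpy 2.4.6, and figures were drawn with matplotlib 3.10.9.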

Additional observations from a re-analysis of the deposited data

How the results depend on the processing

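With 0 members past 2-fold at PMA 3 days, the count higher became 1 by the second-brightest probe set, by the median over probe sets and under median centring, 2 under quantile normalization (TNFAIP3 and NFKBIB, log2 ratios of 1.01 and 1.01) and 6 at 1.5-fold. The count of 1 at PMA 8 days became 0 by probe sets without a suffix mark, which were above the floor for 4 members only and left TNFAIP3 out, and 2 at 1.5-fold. The count lower between the PMA arrays went from 0 to 1 at 1.5-fold. For the 2-fold counts the share of all genes was not taken under each alternative. The alternatives at 1.5-fold were chosen after seeing the data. Under poly-A control scaling the count of 6 of 10 members at PMA 3 days became 2 of 10, against 13.5% of all genes. By the second-brightest probe set it became 2 of 4, against 17.3%, and by unmarked probe sets 2 of 4, against 17.5%. The count of 2 at PMA 8 days became 1 of 4 by each of these probe set choices, against 17.4% and 16.9%. The 1 lower between the PMA arrays became 0 by each of them, against 5.64% and 5.32%. Under poly-A control scaling (1.61%), with the floor at the 60th percentile (3.9%) and with an offset of 50 (5.07%) it also became 0. In 58 of 66 cases, the 1.5-fold threshold among them, the 2-fold counts stayed within 1.5 times. Most of these 58 were counts of 0 that stayed 0, so the figure says little about how stable a count is. TNFAIP3 kept a log2 ratio of 1.21 to 1.44 at PMA 8 days over the settings that gave it a value, and under none of its alternatives did its direction turn. Of 233 member ratios under alternatives 11 moved by more than 1 SD between probe sets, all between the PMA arrays. Of these 10 were under poly-A control scaling and 1, that of NFKB2, under the floor at the 60th percentile. Poly-A control scaling shifts genes above the floor alike. Between the PMA arrays the controls' log2 ratio of -0.30 exceeds the SD of 0.27 in size, and in the other comparisons it stays below the SD. The figure of 11 thus says little about how stable a ratio is. No paired analysis was possible because each condition had 1 array. For the same reason no array could be left out. NFKB2 and NFKBIB lay near the floor, which limits their ratios.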
